A study of Homo sapiens with 2 samples.

Results

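DNA mismatch repair corrects bases that the replication polymerases insert wrongly and the small loops they leave in short repeats. MutS dimers recognise the mismatch, MutL dimers nick the new strand, EXO1 removes the stretch with the error, and replication factors fill and seal the gap. MSH3 and MSH6 each pair with a common MutS partner, while PMS2, PMS1 and MLH3 each pair with a common MutL partner. The 6 genes described here, MSH3, MSH6, PMS2, PMS1, MLH3 and EXO1, were taken by gene symbol out of 52402 symbols in the count tables. All 6 were among the 12644 genes with a mean of at least 1 count per 1000000 (CPM) over both libraries.

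The study sequenced RNA from DLD1, a line of human colorectal adenocarcinoma cells, and its title asks about tumorigenic traits after loss of the HERV-R envelope gene. One library is labelled as a HERV-R (an endogenous retrovirus) knockout and the other is the control, labelled wild type. Both carry the same treatment text, a lipofection of Cas9 and guide vectors with later selection of hygromycin-resistant colonies, while the sources used here do not give the control's vectors, the guide's position or the number of clones. DLD1 is known to be mismatch repair deficient through frameshift changes in MSH6, so both libraries share that background, and a count per gene does not show such changes.

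The knockout-labelled library held 16406308 counts and the control library 21881122. ERV3-1, which encodes the HERV-R envelope protein, was not lower in the knockout-labelled library, with 125 counts (7.62 CPM) there and 127 counts (5.80 CPM) in the control. Every direction below therefore rests on the label. Of 12 colon epithelial markers, 9 reached a mean of 1 CPM, while CDX1 and KRT20 had 0 counts in both libraries. The summed level of that list was 5710 CPM in the knockout-labelled library and 11058 CPM in the control. Of 20 fibroblast, immune and endothelial markers only CD68 reached 1 CPM. With 1 library per group there is no spread between replicates and no test of the knockout. Intervals below are exact 95% intervals for counting error only, and hold nothing on variation between cultures. In bulk RNA, fewer cells of a type and less RNA per cell cannot be told apart.

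EXO1 was the 1 mismatch repair gene at least 2-fold higher in the knockout-labelled library, and 0 were at least 2-fold lower. PMS2, PMS1 and MSH6 were higher by less than 2-fold. The intervals of MLH3 and MSH3 included a ratio of 1. The 1 of 6 genes stands beside 6.78% of all compared genes that were at least 2-fold higher and 5.69% that were at least 2-fold lower, by a log2 ratio with 1 CPM added to both values. The median log2 ratio was 0.43 over the 6 genes and 0.12 over all compared genes. The alternative scalings, TMM (a trimmed mean of log ratios), upper quartile and median of gene ratios, shift the log2 of every plain CPM ratio by -0.12, -0.14 and -0.16, and by less where the added 1 CPM weighs on a low gene. Under these, genes at least 2-fold higher made up 40.6%, 38.5% and 36.5% of those past the rule, against 54.4% with library totals.

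**Figure D1:**
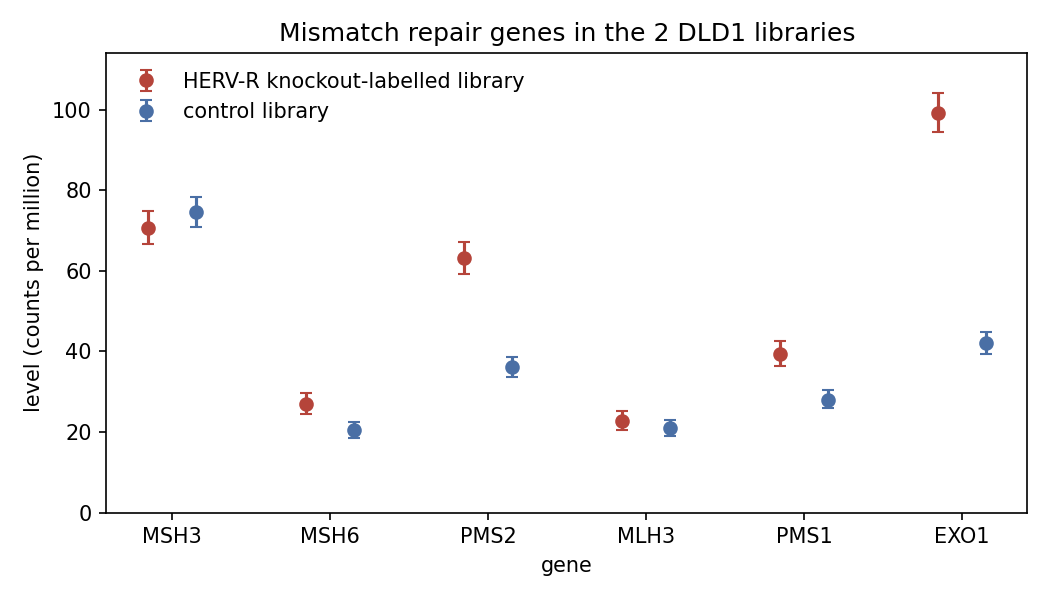
Levels of the 6 mismatch repair genes in CPM (vertical axis, from 0), with the knockout-labelled library in red on the left and the control library in blue on the right of each pair; bars are exact 95% Poisson intervals. EXO1 stands at 99.2 against 42.0 CPM and PMS2 at 63.1 against 36.1 CPM, while the bars of MSH3 and of MLH3 overlap between the libraries.

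Of the mismatch recognition subunits, MSH6 was higher in the knockout-labelled library and MSH3 was not. MSH6 forms the dimer that reads single base mismatches and the smallest loops. It lies on the plus strand of chromosome 2 (GRCh38.p14, 47783145 to 47810101), and its principal transcript has 10 exons. MSH6 had 442 counts (26.9 CPM; 24.5 to 29.6) in the knockout-labelled library and 448 counts (20.5 CPM; 18.6 to 22.5) in the control. The CPM ratio was 1.32 (1.15 to 1.5), and with the other scalings it was 1.18 to 1.21, each with a lower bound above 1. MSH6 therefore lay above the control with every scaling tried, and its log2 ratio stood at percentile 67.4 of the compared genes.

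MSH3 forms the dimer that reads longer loops. The gene lies on the plus strand of chromosome 5 (80654652 to 80876815), with 24 exons in its principal transcript. MSH3 had 1159 counts (70.6 CPM; 66.6 to 74.8) in the knockout-labelled library and 1632 counts (74.6 CPM; 71.0 to 78.3) in the control, a ratio of 0.947 (0.878 to 1.02). These intervals overlap, and MSH3 was the only 1 of the 6 genes with a ratio below 1 under library totals. With the other scalings the ratio was 0.849 to 0.871 and the upper bounds were 0.916 to 0.939, so whether MSH3 was lower depends on the scaling.

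The count ratio between 2 genes of the same library is free of the scaling, and gene length cancels when it is compared between libraries. MSH3 counts were 2.62 times MSH6 counts in the knockout-labelled library and 3.64 times in the control, and the quotient of these was 0.720 (0.617 to 0.840). The balance of the loop-reading to the mismatch-reading subunit thus differed between the libraries by more than counting error.

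The MutL subunits PMS2 and PMS1 were higher in the knockout-labelled library, while MLH3 differed by less than counting error. PMS2 carries the endonuclease that nicks the new strand in the main repair dimer. The gene is on chromosome 7, minus strand (5970925 to 6009106) and its principal transcript has 15 exons. PMS2 had 1036 counts (63.1 CPM; 59.4 to 67.1) in the knockout-labelled library and 790 counts (36.1 CPM; 33.6 to 38.7) in the control, a ratio of 1.75 (1.59 to 1.92). With the other scalings the ratio was 1.57 to 1.61. Of all compared genes, 12.3% had a log2 ratio as high as that of PMS2 or higher.

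PMS1 belongs to a MutL dimer without that endonuclease, and its part in repair is minor. It lies on the plus strand of chromosome 2 (189784450 to 189877629), with 13 exons. PMS1 had 646 counts (39.4 CPM; 36.4 to 42.5) in the knockout-labelled library and 614 counts (28.1 CPM; 25.9 to 30.4) in the control, a ratio of 1.4 (1.25 to 1.57). The intervals did not overlap, and with the other scalings the ratio was 1.26 to 1.29.

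MLH3 shares the endonuclease motif with PMS2, works mainly in meiotic crossing over and has a back-up part in repair. The gene is on chromosome 14, minus strand (75013775 to 75051467), with 13 exons. MLH3 had 373 counts (22.7 CPM; 20.5 to 25.2) in the knockout-labelled library and 459 counts (21.0 CPM; 19.1 to 23.0) in the control. Its ratio was 1.08 (0.943 to 1.25) and was below 1 with the other scalings (0.971 to 0.996), with an interval that held 1 each time.

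EXO1 is the exonuclease that cuts back the nicked strand, and it also trims DNA ends for recombination. It lies on the plus strand of chromosome 1 (241847986 to 241889939), with 16 exons. EXO1 had 1627 counts (99.2 CPM; 94.4 to 104) in the knockout-labelled library and 920 counts (42.0 CPM; 39.4 to 44.9) in the control, a ratio of 2.36 (2.17 to 2.56). The log2 ratio was 1.22, which 3.32% of compared genes reached or passed. It remained at 1.06 to 1.10 with the other scalings. By level, EXO1 stood at percentile 80.8 of the compared genes in the knockout-labelled library and at percentile 59.9 in the control.

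Of the 15 pairs that the 6 genes form, the quotient of count ratios left out 1 in 12. These pairs all rest on the same 6 genes, so they are not separate results. The share for pairs of other genes was not computed. EXO1 was higher relative to each of the other 5 genes. The quotient of MSH3 over EXO1 was 0.402 (0.359 to 0.449), that of MLH3 over EXO1 0.460 (0.391 to 0.540) and that of PMS2 over EXO1 0.742 (0.655 to 0.840). PMS2 was higher relative to both other MutL subunits, with a quotient of 1.61 (1.36 to 1.91) against MLH3 and 1.25 (1.08 to 1.44) against PMS1. The 3 pairs whose interval held 1 were MSH3 with MLH3, MSH6 with PMS1, and MSH6 with MLH3, where the lower bound was 0.9999. These differences were differences between the genes of 2 libraries, and no replicate tells how far they vary between cultures.

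**Figure D2:**
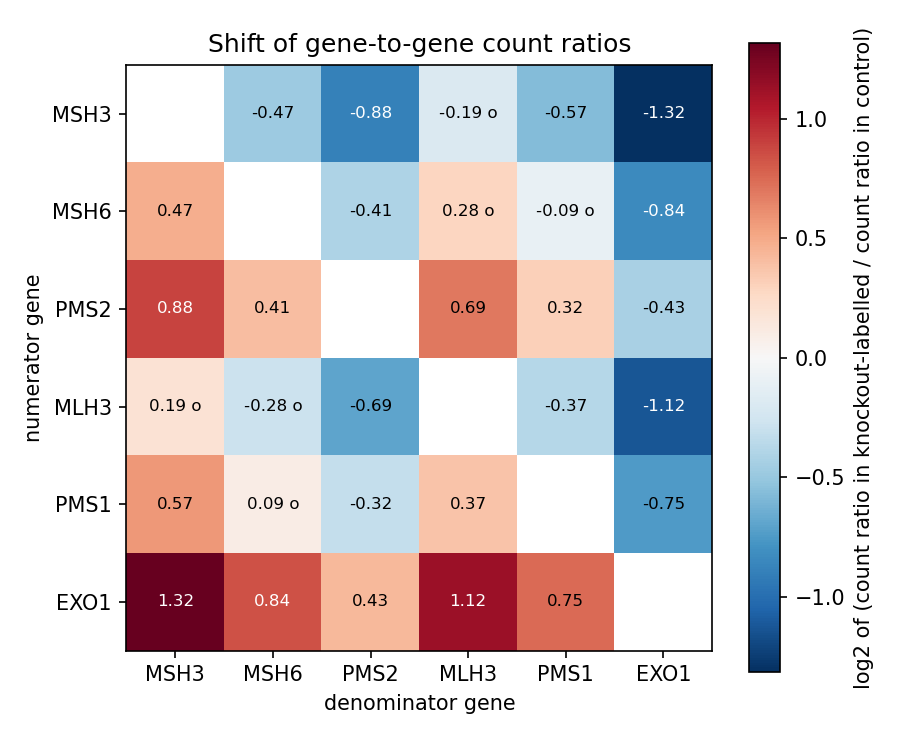
Log2 of the count ratio of the row gene to the column gene in the knockout-labelled library, divided by the same ratio in the control; red cells mark a higher ratio in the knockout-labelled library, blue cells a lower one, and an o marks the 3 pairs whose 95% interval held no change. The EXO1 row is red against all 5 other genes and the MSH3 row is blue against all 5.

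Levels of different genes were compared per kilobase (kb) of coding sequence. In the knockout-labelled library the order was EXO1 (39.1 CPM per coding kb), PMS2 (24.4), MSH3 (20.7), PMS1 (14.1), MSH6 (6.60) and MLH3 (5.22). In the control it was MSH3 (21.9 CPM per coding kb), EXO1 (16.6), PMS2 (14.0), PMS1 (10.0), MSH6 (5.02) and MLH3 (4.81). MSH6 and MLH3 were the lowest in both libraries. They were the only neighbours in either order whose counting intervals overlapped, and only in the control (4.56 to 5.51 and 4.38 to 5.27). Per kb of the full transcript, a setting added after the values were seen, the order in the knockout-labelled library was the same. In the control PMS2 then stood at 12.6 and EXO1 at 12.1 CPM per kb, so the order of these 2 depends on the length used.

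PMS2 has many partial copies, and its value carries the uncertainty of where their reads were counted. Of its 13 pseudogene symbols in the tables, 11 had counts in either library. Of the 50-base words of the principal PMS2 transcript (GENCODE release 29), 34.1% also occur in transcripts of other genes, 28.8% in PMS2CL, and of its 100-base words 17.4% occur in PMS2CL. Reads from such stretches can be dropped or assigned to either row. PMS2CL had 111 counts (6.77 CPM) in the knockout-labelled library and 93 counts (4.25 CPM) in the control, a ratio of 1.59 (1.20 to 2.12). PMS2P1, the pseudogene with the most counts, had 187 counts (11.4 CPM) in the knockout-labelled library and 278 counts (12.7 CPM) in the control, a ratio of 0.897 (0.741 to 1.08).

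The 13 pseudogenes together had 562 counts (34.3 CPM) in the knockout-labelled library and 636 counts (29.1 CPM) in the control, a ratio of 1.18 (1.05 to 1.32). PMS2 made up 64.8% of the counts of gene and pseudogenes in the knockout-labelled library and 55.4% in the control. The count ratio of PMS2 to its pseudogenes was 1.84 in the knockout-labelled library and 1.24 in the control, and their quotient of 1.48 (1.28 to 1.72) does not depend on scaling. Summed with all pseudogenes the ratio was 1.49 (1.39 to 1.61).

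**Figure D3:**
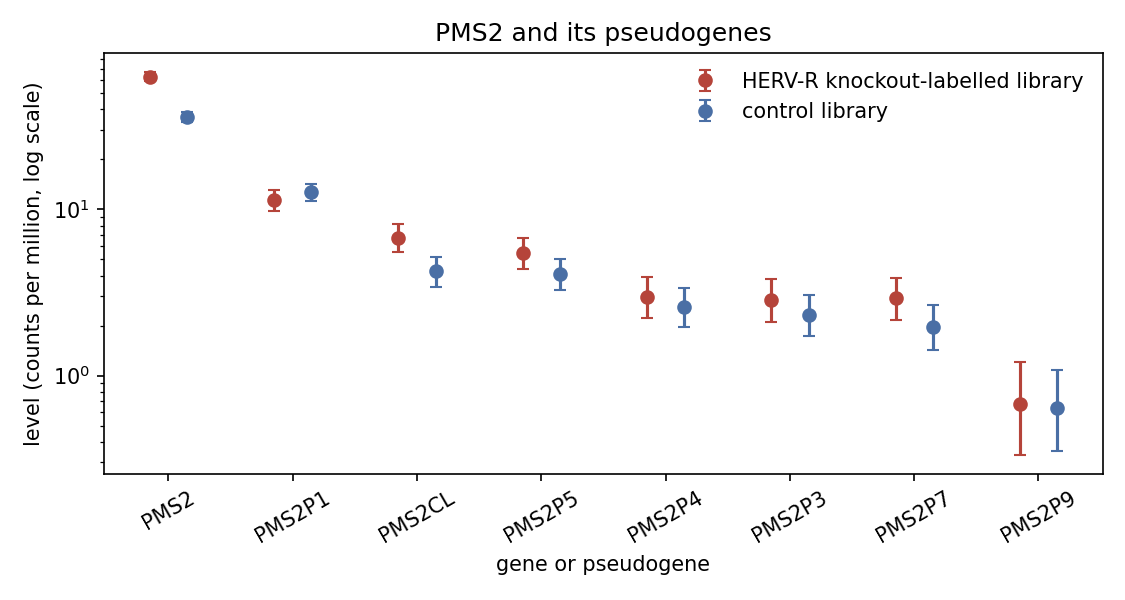
Levels of PMS2 and of the 7 pseudogenes with more than 20 counts over both libraries, in CPM on a log axis, with the knockout-labelled library in red on the left and the control in blue on the right of each pair; bars are exact 95% Poisson intervals. PMS2 lies above all of its pseudogenes in both libraries, and the bars of PMS2P1 overlap.

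MSH6 shares sequence with a neighbouring gene on the opposite strand. For MSH6, 21.6% of the 50-base words of its principal transcript and 19.0% of its 100-base words occur in FBXO11 transcripts, which run into it from the other side. For EXO1, PMS1 and MLH3 the share was 0%. The library kit marks strand, but the sources used here do not give whether counting used it, so reads of overlapping ends may stand on either row. FBXO11 itself had 99.8 CPM in the knockout-labelled library and 92.3 CPM in the control, a ratio of 1.08 (1.01 to 1.15).

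PMS2 and PMS1 were set beside the protein-coding genes that start within 1000 bases of them on the opposite strand. PMS2 and AIMP2, a scaffold protein of the tRNA synthetase complex, start 139 bases apart and were both higher. AIMP2 had 58.0 CPM in the knockout-labelled library and 28.4 CPM in the control, a ratio of 2.04 (1.84 to 2.26), and its log2 ratio was 0.85 to 0.89 with the other scalings, short of 2-fold. PMS1 and ORMDL1, a regulator of sphingolipid synthesis, start 79 bases apart, and of the pair PMS1 alone was higher. ORMDL1 had 45.4 CPM in the knockout-labelled library and 47.1 CPM in the control, a ratio of 0.965 (0.877 to 1.06).

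E2F factors drive the transcription of replication genes and bind words such as TTTCCCGC, TTTGGCGC, TTTCGCGC and TTTGCCGC. These 4 words were searched on both strands of the RefSeq promoter windows (GRCh38.p14, 250 bases before to 50 after each start, the first window listed per gene). All 6 genes had a window, and 4 of them held a word, against 3.31% of 35116 windows and 5.46% of the 9370 compared genes with a window. Among the lists described below, a word stood in 17 of 30 windows of G1/S and replication genes. It stood in 3 of 12 windows of excision and resynthesis factors and 5 of 25 of recombination and Fanconi genes. Base excision repair genes held a word in 0 of 16 windows and nucleotide excision repair genes in 1 of 23. The windows of the 6 genes were 51.0% to 78.0% G and C, and each word contains CG. The stretches around the words are shown for the 3 mismatch repair genes with a word that were higher in the knockout-labelled library. Each runs 5′ to 3′ along the gene's strand with the words in capitals. They lie at chr1:241848182-241848241 (plus strand) for EXO1, chr7:6009116-6009175 (minus strand) for PMS2 and chr2:47783122-47783181 (plus strand) for MSH6.
EXO1: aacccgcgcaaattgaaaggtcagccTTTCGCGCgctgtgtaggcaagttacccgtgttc
PMS2: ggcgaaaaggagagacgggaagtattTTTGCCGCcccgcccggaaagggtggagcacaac
MSH6: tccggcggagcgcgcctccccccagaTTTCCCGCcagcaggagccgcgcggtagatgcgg

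Counted from the start that defines the window used, the words begin 4 bases after it in EXO1, 3 bases after it in MSH6 and 43 bases before it in PMS2. EXO1 and PMS2 have 2 listed windows and MSH6 has 4, so other starts exist. For EXO1 the start used lies inside the gene and is not the first gene position given above. MSH3, not shown above, held 2 overlapping words, which begin 107 and 103 bases before its start. The 4 genes with a word include both the highest ratio (EXO1, 2.36) and the lowest (MSH3, 0.947), and PMS1 and MLH3, which hold none, lay between. Among compared genes with a window, 9.38% of the 512 with a word and 6.51% of those without were at least 2-fold higher, and the median log2 ratios were 0.27 and 0.11. A match is a description of these letters and not of binding.

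Mismatch repair genes themselves carry short repeats of 1 base in their coding sequence, the kind of site that slips when repair is missing. The longest such run in each principal GENCODE transcript is shown in capitals with the bases around it, because these are the sites at which a repair-deficient line can lose a subunit without a change that a gene count would show. The run begins at coding base 1747 of 4359 in MLH3, 1141 of 3411 in MSH3, 3254 of 4080 in MSH6, 1232 of 2586 in PMS2, 486 of 2796 in PMS1 and 1516 of 2538 in EXO1.
MLH3: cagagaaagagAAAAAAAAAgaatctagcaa
MSH3: atgttagggacAAAAAAAAgggcaacattt
MSH6: gccggaagataCCCCCCCCttcttagagct
PMS2: gactggagaagAAAAAAAAgacgtgtccat
PMS1: tactcaactgcAAAAAAAtgtaaagatga
EXO1: ccagaagcaggTTTTTTTgcagttcagat

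The run was 9 bases long in MLH3, 8 in MSH3, MSH6 and PMS2, and 7 in PMS1 and EXO1, where a second run of 7 occurs. These are reference sequences. The deposited tables hold counts per gene, so the length of these runs in the sequenced cells was not analysed here.

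The genes that complete the repair were mostly higher in the knockout-labelled library. Of 15 measured excision and resynthesis factors, 3 were at least 2-fold higher, 1 was at least 2-fold lower and 11 lay between, with a median log2 ratio of 0.65. LIG1, the ligase that seals the last nick, had 115 CPM in the knockout-labelled library and 37.9 CPM in the control, a ratio of 3.03 (2.79 to 3.30). FEN1, the flap nuclease, was 2.10-fold higher (106 against 50.4 CPM), and POLD1, the catalytic subunit of the gap-filling polymerase delta, was 2.05-fold higher (124 against 60.3 CPM). With each other scaling LIG1 alone kept the rule among the higher ones.

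The sliding clamp PCNA, which steers MutL to the new strand, had 192 CPM in the knockout-labelled library and 122 CPM in the control, a ratio of 1.57 (1.49 to 1.65). Subunits of single complexes had unequal ratios. Of the clamp loader, RFC3 was 2.03-fold higher (1.84 to 2.24), though just short of the rule with 1 CPM added (log2 ratio 0.9998). RFC1 had 128 CPM in both libraries. Of polymerase delta, the smallest subunit POLD4 had 22.6 CPM in the knockout-labelled library and 49.6 CPM in the control, 2.20-fold lower (1.95 to 2.48), and it was lower with every scaling. Of the single-strand binding complex, RPA1 and RPA2 had ratios of 1.46 and 1.46, and RPA3 one of 1.04 (0.935 to 1.17).

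**Figure D4:**
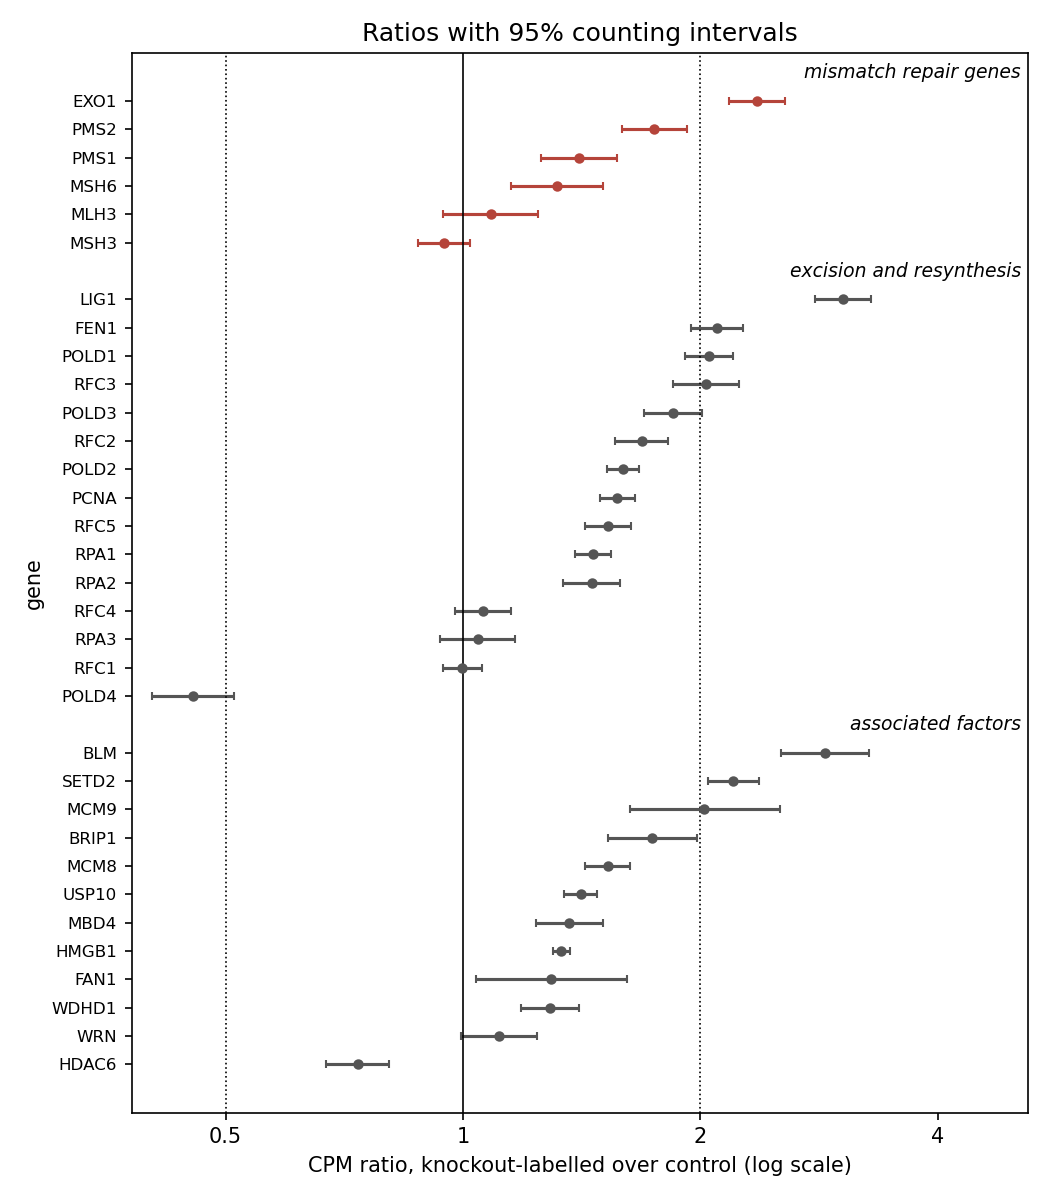
CPM ratio, knockout-labelled over control library, on a log axis, with exact 95% counting intervals, for the 6 mismatch repair genes (red), 15 excision and resynthesis factors and 12 associated factors (grey); the solid line marks 1 and the dotted lines 0.5 and 2. EXO1 and LIG1 lie to the right of 2, MSH3 and MLH3 cross 1, and POLD4 and HDAC6 lie to the left of 1.

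Of 12 factors that act beside mismatch repair, 2 were at least 2-fold higher, 0 lower by that much and 10 between (median log2 ratio 0.46). The share at least 2-fold higher was 6.78% over all compared genes. BLM, a helicase that works with EXO1 at DNA ends, had 46.7 CPM in the knockout-labelled library and 16.2 CPM in the control, a ratio of 2.88 (2.53 to 3.27). SETD2, which writes the histone mark that MSH6 binds on chromatin, had 115 CPM in the knockout-labelled library and 52.3 CPM in the control (2.20; 2.05 to 2.37), and its log2 ratio was just under 1 with upper quartile (0.99) and median-of-ratios scaling (0.97). The helicase genes MCM8 and MCM9 had ratios of 1.53 and 2.02, where MCM9 had 214 counts in the knockout-labelled library and 141 in the control. With 1 CPM added the log2 ratio of MCM9 was 0.92, short of the rule. WRN, a helicase on which repair-deficient cells are known to depend, had 35.8 CPM in the knockout-labelled library and 32.3 CPM in the control (1.11; 0.994 to 1.24). HDAC6, a deacetylase that acts on a MutS subunit, was 1.36-fold lower (44.6 against 60.7 CPM).

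Of the meiotic MutS genes, MSH4 had few counts and MSH5 could not be read. MSH4 had 12 counts (0.731 CPM) in the knockout-labelled library and 39 counts (1.78 CPM) in the control, a ratio of 0.410 (0.196 to 0.800). MSH5 stands on 8 rows of the tables, which together held 3 counts in the knockout-labelled library and 7 in the control. Genes that all cells use and that stand on several rows had as few, such as CDK7 (2 rows, with 3 counts in the knockout-labelled library and 7 in the control) and GTF2H4 (6 rows, 0 in both), both chosen after their values were seen. The MSH5 count is therefore no measure of its expression. Each of the 6 mismatch repair genes stands on 1 row.

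Other repair pathways gave a setting for these values. Base excision repair had 0 of 20 measured genes past the 2-fold rule (median log2 ratio 0.42), with the strand break sensor PARP1 at 464 CPM in the knockout-labelled library and 306 CPM in the control. Nucleotide excision repair had 0 of 22 (median 0.10), and that median turned to between -0.02 and -0.05 with the other scalings. End joining had 2 of 14 higher (median 0.47), the kinase PRKDC with a ratio of 2.29 and RIF1, which lost the rule with each other scaling. Recombination and Fanconi genes had 4 of 30 higher (median 0.51), led by the resolvase GEN1 at 4.60-fold (36.1 against 7.86 CPM) and XRCC2 at 3.49-fold, while with each other scaling 3 were higher. In all 4 of these lists 0 genes were at least 2-fold lower. Thus the mismatch repair median of 0.43 was close to those of base excision, end joining and recombination.

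Most replication genes were higher in the knockout-labelled library, and mitotic genes lay in both directions. The G1/S and replication list had 14 of 34 measured members higher by 2-fold or more and 0 lower by as much, with intervals above 1 for 32 under library totals (median log2 ratio 0.90), and 10 to 12 were higher with the other scalings. POLA1, of the priming polymerase, had 71.9 CPM in the knockout-labelled library and 18.0 CPM in the control. Of 26 G2/M genes, 3 were higher and 0 lower (median 0.43), led by the kinetochore gene CENPF at 3.11-fold. The counting interval of the ratio lay above 1 in 19 of the 26, below 1 in 5 and held 1 in 2. The lowest was the mitotic kinase CDK1, chosen after its value was seen, with 124 CPM in the knockout-labelled library and 199.99 CPM in the control, a ratio of 0.622 (0.590 to 0.656). Of 18 damage checkpoint genes, 5 were higher and 0 lower (median 0.35), among them ATRIP at 2.71-fold and CLSPN at 2.57-fold. With each other scaling 2 were higher in each of the last pair of lists. The part of cell cycle state in the EXO1 and PMS2 values was not tested.

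Among 215 measured genes of the other lists, the gene with the ratio nearest to that of EXO1 was CDC45, a replication helicase factor (log2 ratios of 1.21 and, for EXO1, 1.22). The nearest to PMS2 was APTX, a nick-cleaning enzyme (0.79 and 0.79), and the nearest to MSH6 was E2F1 (0.38 and 0.38). For PMS1 it was DDB1 (0.48 and 0.47), for MLH3 RBBP8 (0.11 and 0.11) and for MSH3 XRCC4 (-0.08 and -0.08). Only genes of the chosen lists were searched, so the nearest gene had to come from them. Each likeness is of 1 ratio over 2 libraries.

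**Figure D5:**
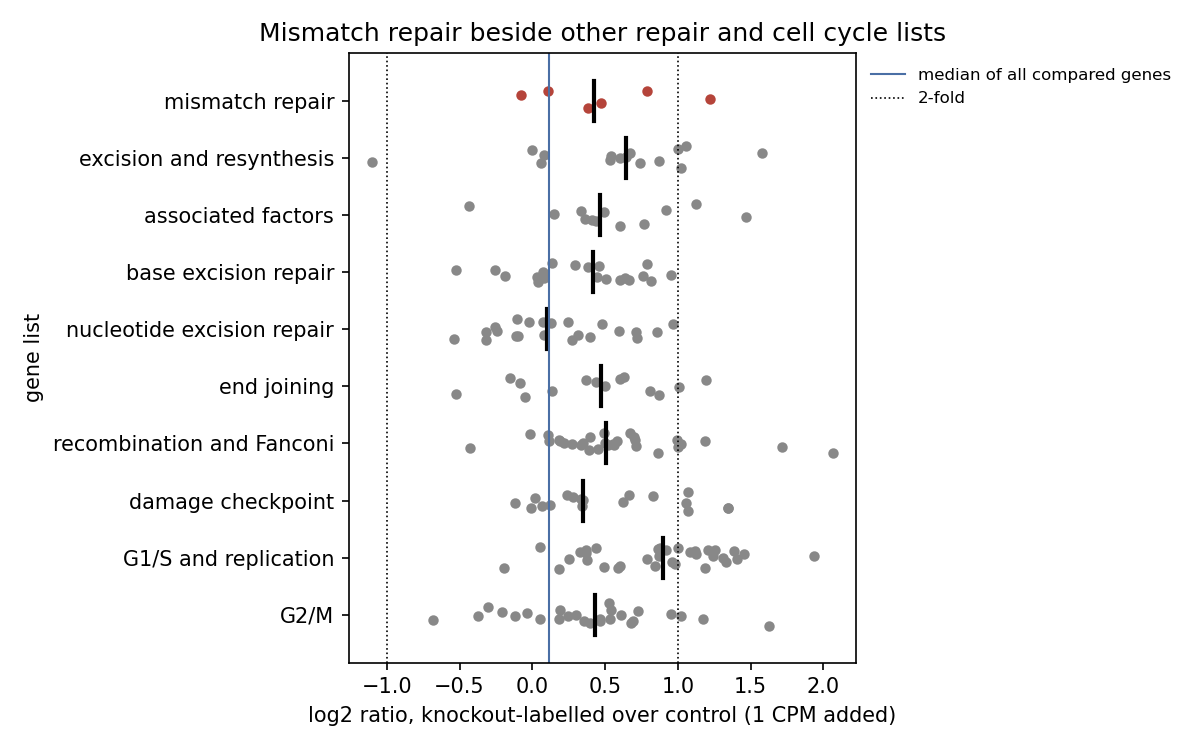
Log2 ratio, knockout-labelled over control library, with 1 CPM added, for each measured gene of 10 lists; black bars are list medians, the blue line is the median of all compared genes (0.12) and dotted lines mark 2-fold. The 6 mismatch repair genes (red) spread from -0.08 to 1.22 around a median of 0.43, and the G1/S and replication list has the highest median (0.90).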

How the data were processed

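RNA of 2 DLD1 libraries was sequenced. The authors deposited 1 table of raw counts per gene symbol for each, not normalized. TopHat and the build GRCh38 are named in the submitters' processing notes. The sources used here do not give the version, counting program, annotation, strand setting or filters. Rows of 1 symbol were summed (58173 rows to 52402 symbols) and scaled by the library total to CPM. The log2 ratio (knockout-labelled over control library) used a pseudocount of 1 CPM. Comparison was limited to genes whose mean reached 1 CPM, under a size rule of 2-fold. Ratios of single genes carry no pseudocount and have exact 95% Clopper-Pearson intervals given the sum of both counts. Quotients of count ratios have conditional exact intervals. PCR duplicates are not independent molecules, so all intervals cover counting error only. No p-value is given, since each group has 1 library. The limit set by a count of 0 was taken as 3 counts (0.183 CPM knockout-labelled, 0.137 CPM control).

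The members and gene lists were chosen with earlier results of these data known. All 6 members were named, and from each other list up to 3 genes past the rule in each direction or, where 0 passed, the 2 most abundant. All genes of the excision, resynthesis and associated lists could be named, with PMS2 pseudogenes, head-to-head neighbours and each member's nearest gene by ratio. Of 232 list entries, 232 matched a symbol, 3 of them through an older symbol. Some genes of the pathway are not reported here. Gene positions and promoter windows come from RefSeq (GRCh38.p14). Strands, transcripts and lengths come from GENCODE release 29 on GRCh38, with the longest principal transcript per gene. FBXO11 was named after its values were seen. Other scalings used edgeR 4.0.16 (TMM, upper quartile) and a median of gene ratios. Further alternatives were pseudocounts of 0.1 and 5 CPM, no filter or one at a mean of 5 CPM, rules of 1.5-fold or 3-fold in place of 2-fold, and symbols on a single row. The procedure was tested on simulated data. Python 3.11.15, scipy 1.17.1 and R 4.3.3 were used.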

Additional observations from a re-analysis of the deposited data

How the results depend on the processing

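No paired analysis was possible because each group has 1 library, and for the same reason no replicate could be left out. Over the 8 alternatives that apply to single ratios, MSH6, PMS2, PMS1 and EXO1 stayed above 0 and EXO1 at or above 1 on the log2 scale, while MLH3 was above 0 in 5. With TMM, the upper quartile and the median of gene ratios MSH3 stood at -0.20, -0.22 and -0.23 and EXO1 at 1.10, 1.08 and 1.06, and with the last 2 of these PMS2 stood at 0.65 and 0.63. Each such scaling shifts every plain ratio by construction. In each of the 3, 1 excision and resynthesis gene was at least 2-fold higher. Of compared genes, 544 were higher with the median of gene ratios. A pseudocount of 5 left 426 compared genes higher and 371 lower, and 1 excision and resynthesis gene higher and 0 lower. A rule of 1.5-fold took 2567 higher and 1674 lower, with 2 mismatch repair and 9 excision and resynthesis genes higher. A rule of 3-fold took 118 higher and 229 lower, with 0 mismatch repair genes and 0 excision and resynthesis genes in either direction. Depth sets the wide interval of MSH4, while MSH5 stands on several rows and its few counts were not read. Some list genes on several rows, such as the associated factor FAN1 (3 rows), were kept as measured, and their counts carry the same doubt. With symbols on a single row, 5 damage checkpoint genes and 2 associated factors were still at least 2-fold higher, and the median of the associated factors was 0.49.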

Other observations

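Mismatch repair deficient tumours collect frameshifts in genes with coding repeats. Of 30 such genes, 28 were measured. In the knockout-labelled library 6 were at least 2-fold higher, 0 were at least 2-fold lower and 22 lay between. Of all compared genes 6.78% were at least 2-fold higher. The median log2 ratio was 0.58 over the 28 genes and 0.12 over all compared genes. The counting interval of the plain ratio lay above 1 in 17 of the 28, below 1 in 7 and held 1 in 4. The shares of all compared genes with such intervals were not computed, while 58.1% had a log2 ratio above 0. Some of the 6 higher genes, such as PRKDC, were also counted in lists above. Without 1 CPM added, the repair kinase PRKDC was 2.29-fold higher (369 CPM in the knockout-labelled library and 161 CPM in the control), the chromatin remodelling subunit ARID1A 2.22-fold (228 and 103 CPM) and the receptor IGF2R 2.18-fold (137 and 62.7 CPM). By TMM or upper quartile scaling 2 passed the 2-fold rule, and by the median of gene ratios 1. A count per gene does not show whether these repeats are intact.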
